A study of Mus musculus with 12 samples.

Results

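The genes described here encode the subunits of the proteasome, its activators and its assembly chaperones. They were taken by name: every probe whose platform gene symbol was Psma, Psmb, Psmc, Psmd, Psme, Psmf or Psmg followed by a number was included, and each gene was represented by the probe with the highest mean level over the 12 arrays, so that no difference between tissues or diets entered the choice. This gave 46 of the 17658 genes named on the platform, measured by 74 of its 46133 probes. There were 8 core alpha genes (Psma), 11 core beta genes (Psmb), 6 cap ATPase genes (Psmc), 14 cap non-ATPase genes (Psmd), 4 activator genes (Psme) and 3 assembly genes (Psmg). The symbols Psmf1 and Psmg4 were not matched to a probe and were not analysed here.

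RNA was studied from male C57BL/6 mice aged 18 weeks, 3 of which had received a high-iron diet with 2% carbonyl iron and 3 a control diet with 0.02% iron, each over 6 weeks. Heart and extensor digitorum longus, a fast hindlimb muscle called skeletal muscle below, were taken and hybridized to Illumina Sentrix Mouse-6 BeadChips, 1 array per sample. The groups are thus high-iron hearts, control hearts, high-iron muscles and control muscles, with 3 arrays each, all from 1 strain and 1 sex without any engineered allele. Levels below are signals after quantile normalization over the 12 arrays, and differences are log2 fold changes, given ± the standard error (SE), from limma, a linear model fitted to all probes, with p adjusted by the Benjamini-Hochberg method over all 46133 probes and a threshold of 0.05. Array medians before normalization were 182.9 to 337.2. All 7 cardiomyocyte genes measured were higher in heart and all 9 fast-fibre genes were lower there. In such bulk samples, fewer cells of a type and less mRNA per cell cannot be told apart.

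The core of the proteasome is a barrel of stacked rings, with alpha subunits in the outer rings forming the gate and beta subunits in the inner rings carrying the proteolytic sites. The cap binds ubiquitin-tagged proteins, removes the ubiquitin and unfolds the substrate with a ring of ATPases (Psmc) held by non-ATPase subunits (Psmd). Under interferon-gamma the standard catalytic subunits Psmb5, Psmb6 and Psmb7 are replaced by their inducible counterparts Psmb8, Psmb9 and Psmb10 to form the immunoproteasome. Interferon-gamma also induces Psme1 and Psme2, which form an activator ring known for aiding the production of peptides for antigen presentation. In muscle the ubiquitin-proteasome system is known for the breakdown of myofibrillar proteins during atrophy.

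Promoter sequences are shown for members on which the results turn. Of the 46 members, 38 were matched to a RefSeq promoter (build GRCm38.p6, 250 bases before to 50 after the gene start) that could be used. Whole promoters follow for Psme1, the member with the largest rise in heart relative to skeletal muscle, for Psmb9, an inducible catalytic subunit, and for Psmd8, the called member with the largest fall. Psme1 lies at chr14:55578244-55578543 on the plus strand, Psmb9 at chr17:34187281-34187580 on the minus strand and Psmd8 at chr7:29180624-29180923 on the minus strand, and each sequence runs 5′ to 3′ on the strand of its gene. Capitals mark matches on either strand to GAAANNGAA, a core of the interferon-stimulated response element, or to TGACNNNGC, the core of the antioxidant response element.
Psme1: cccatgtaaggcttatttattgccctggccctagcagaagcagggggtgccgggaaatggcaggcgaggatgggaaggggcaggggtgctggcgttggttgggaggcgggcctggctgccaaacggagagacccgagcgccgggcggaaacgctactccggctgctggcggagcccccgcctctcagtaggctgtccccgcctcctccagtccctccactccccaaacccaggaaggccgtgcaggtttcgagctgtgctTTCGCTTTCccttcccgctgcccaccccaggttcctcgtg
Psmb9: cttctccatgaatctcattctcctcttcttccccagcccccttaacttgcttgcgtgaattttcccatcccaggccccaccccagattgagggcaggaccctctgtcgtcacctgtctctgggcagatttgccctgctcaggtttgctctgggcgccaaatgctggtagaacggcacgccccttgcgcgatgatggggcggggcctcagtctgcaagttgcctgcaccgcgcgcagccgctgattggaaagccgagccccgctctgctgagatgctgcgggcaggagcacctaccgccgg
Psmd8: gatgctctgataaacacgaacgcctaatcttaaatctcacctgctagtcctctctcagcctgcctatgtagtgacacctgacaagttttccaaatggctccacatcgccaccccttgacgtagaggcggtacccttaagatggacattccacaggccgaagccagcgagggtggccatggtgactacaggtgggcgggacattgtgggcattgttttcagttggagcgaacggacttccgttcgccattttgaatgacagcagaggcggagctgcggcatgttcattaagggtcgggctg
The Psme1 promoter had 1 match, TTCGCTTTC, which is the interferon core read on the opposite strand and begins at base 11 of the transcript, while neither motif occurred in the Psmb9 and Psmd8 windows. The interferon core was chosen after the values were seen. It was found in the promoters of 6 of the 38 members (15.8%; Psmb3, Psmb4, Psmc2, Psmd4, Psmd9 and Psme1), against 8.56% of all 32851 promoters. Members were counted by gene and the background by promoter, so these shares are not strictly alike. The Psmb9 promoter overlaps that of Tap1, a peptide transporter gene on the opposite strand, over 275 of its 300 bases.

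The antioxidant response element is bound by Nfe2l1 and Nfe2l2, transcription factors known to induce proteasome genes, and it is shown because iron load was the treatment. Its core occurred in the promoters of 6 of the 38 members (15.8%), against 12.4% of all promoters, with members again counted by gene. The matches are given with 10 bases on each side where the window allows, on the strand of the gene, with the core in capitals.
Psmb5 (chr14:54618024-54618052, minus strand): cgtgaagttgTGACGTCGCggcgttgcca
Psmb6 (chr11:70525338-70525366, plus strand): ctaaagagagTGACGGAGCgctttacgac
Psmc6 (chr14:45329587-45329615, plus strand): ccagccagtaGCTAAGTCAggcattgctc
Psmd12 (chr11:107479278-107479299, plus strand): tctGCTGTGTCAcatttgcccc
Psmd9 (chr5:123228149-123228177, plus strand): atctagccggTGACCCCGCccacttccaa
Psme4 (chr11:30771758-30771786, plus strand): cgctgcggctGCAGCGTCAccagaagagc
In the Psmb5 and Psmb6 promoters the core began 47 and 9 bases before the gene start, and in the Psmd12 promoter 247 bases before it. These matches are a description of the letters and not of binding.

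On 2 heart arrays, high-iron replicate 1 and control replicate 2, the members departed from the other hearts. The median correlation of these arrays with the other heart arrays was 0.930 and 0.936, against 0.985 to 0.986 for the 4 remaining hearts. On both, 22 of the 46 members (47.8%) lay above all 4 other hearts, as did 21.8% of the 23066 probes above the median level and 16.5% of all probes. The brightest probes of Psmb7 and Psmd1 instead lay at least 1 below the other hearts on the log2 scale, as did 115 probes in all (0.249%). For Psmb7, a standard catalytic subunit, the brightest probe read 297 in high-iron heart 1 and 284 in control heart 2, against 3583 to 3657 on the other 4 hearts. Psmd1, a large scaffold subunit of the cap, had 329.9 and 2219 on these arrays, against 5476 to 5884. Psmb8 had 496 and 488, against 736 to 856. The other 2 probes of Psmb7 were not low on these arrays. Second probes of Psmb3 and Psmb8 were low there. That of Psmb3 read 297 in high-iron heart 1 and 1183 in control heart 2, against 1465 to 1770 on the other hearts. That of Psmb8 read 346 and 334, against 425 to 509. The study's methods state that the hybridization controls showed problems on a heart array of each diet, and that probes which failed there were left out of those arrays. The methods name neither the replicates nor the probes, and the labels mark no array. In its heart lists the study marks genes read on 2 high-iron and 2 control samples, but these lists hold neither Psmb7 nor Psmd1. Whether the Psmb7 and Psmd1 probes were among those left out is thus not known, and the 12-array values of Psmb7 and Psmd1 include their signals on these arrays. Tissue results are given below with all 12 arrays and again with the other 10.

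**Figure D1:**
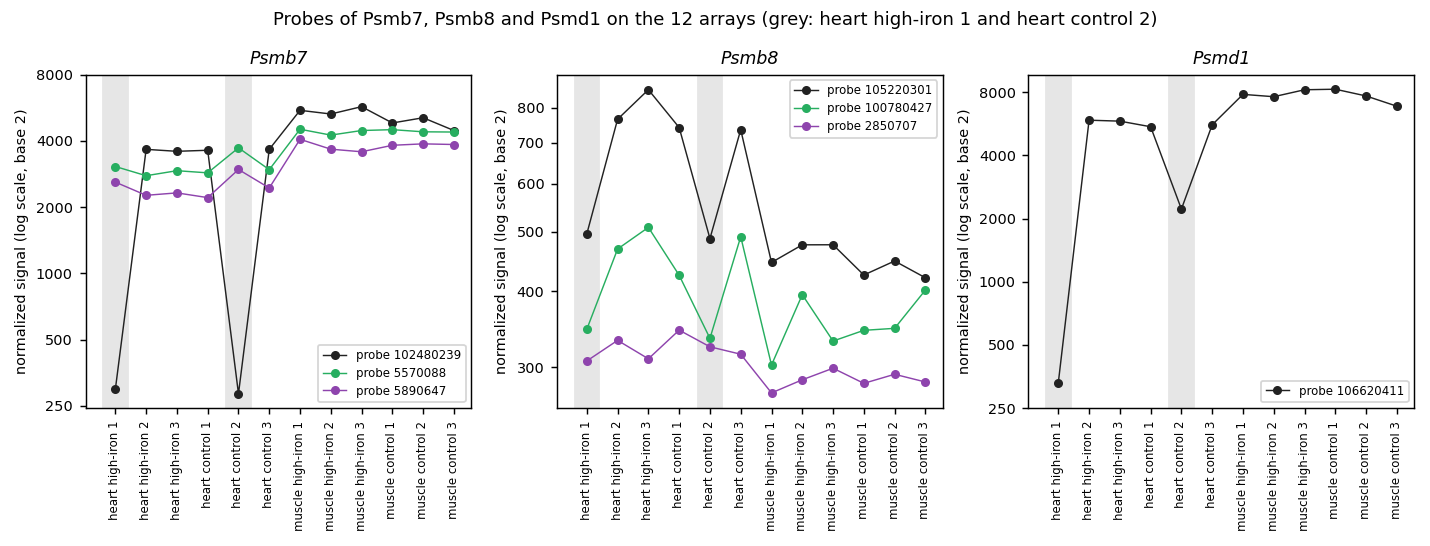
Normalized signal (log axis, base 2) of every probe of Psmb7 and Psmb8 and of the single Psmd1 probe on each of the 12 arrays, with high-iron heart 1 and control heart 2 shaded. The brightest Psmb7 probe had 297 and 284 on the shaded arrays, against at least 3583 on the other hearts, while its other probes did not drop there.

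**Figure D2:**
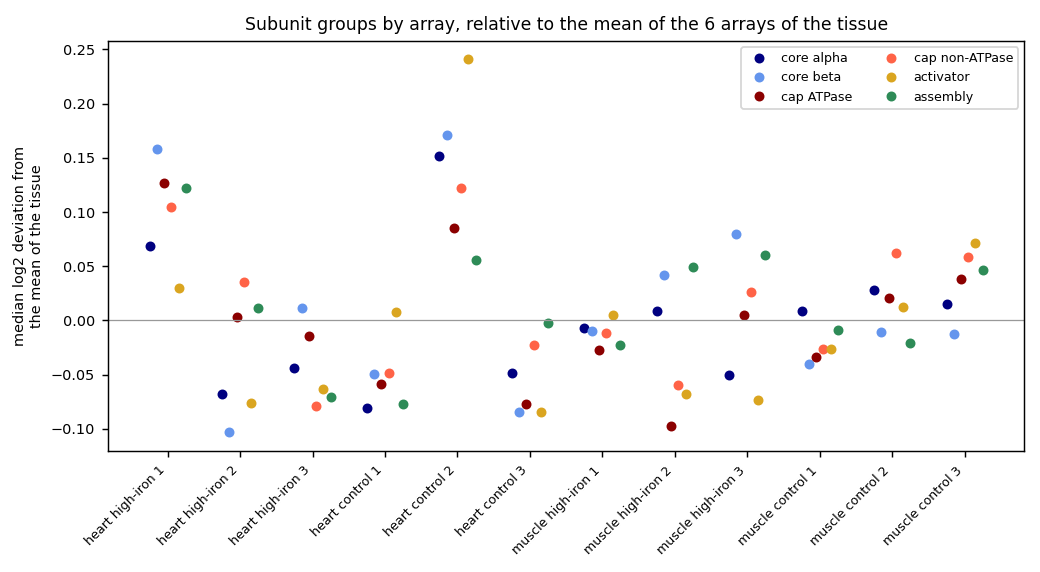
Median log2 deviation of each subunit group on each array from the mean of the 6 arrays of that tissue; 1 point per group and array. All 6 groups lay above 0 on high-iron heart 1 and control heart 2, where the median over all 46 members was 0.11 and 0.13, against -0.05 on each of the other 4 hearts.

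Heart and skeletal muscle differed in the make-up of their proteasome transcripts. In heart, 6 of the 46 members were higher and 11 lower than in skeletal muscle at an adjusted p under 0.05, against 7.61% of all probes higher and 5.76% lower (among probes above the median level, 14.3% and 11%). Of the 42 members above the median level, 6 were higher and 11 lower, so the higher count was near the share of such probes. The inducible genes of the immunoproteasome and its activator, Psmb8, Psmb9, Psmb10, Psme1 and Psme2, made up 5 of the 6 higher members, and the assembly gene Psmg1 was the other. Of the 20 cap genes 9 were lower and none higher. Among the 19 core genes, 3 were higher and 2 lower. The median log2 fold change over all members was -0.09, against 0.00 over all probes (standard deviation of the array medians of the members around their group, 0.0767). Levels of the 6 hearts and 6 muscles did not overlap for 16 of the 46 members, against 9.58% of all probes and 18.6% of those above the median level. These were 14 of the 17 called members, together with Psmb7 and Psmd1. The sign was the same in both diets for all 17.

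**Figure D3:**
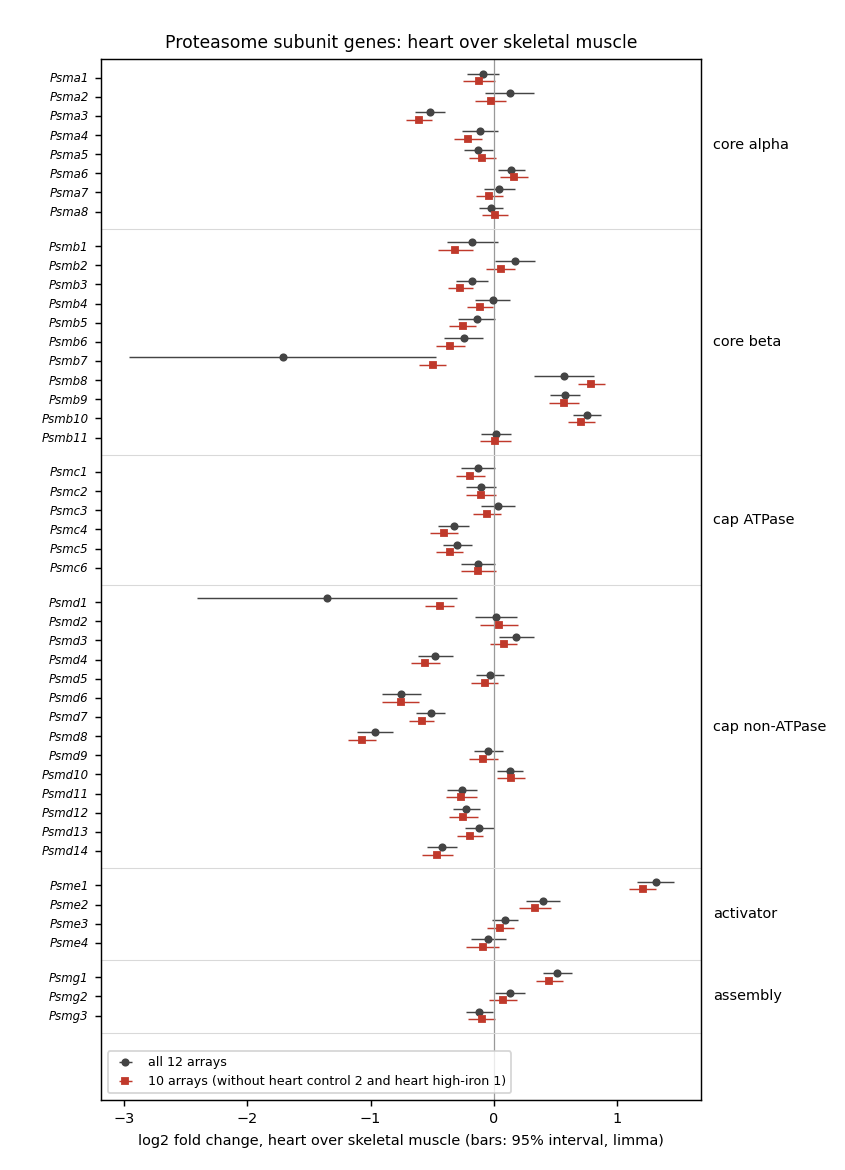
Log2 fold change, heart over skeletal muscle, of each of the 46 members by subunit group, with 95% intervals from limma, for all 12 arrays (circles) and for 10 arrays without high-iron heart 1 and control heart 2 (squares). The inducible genes Psmb8, Psmb9, Psmb10, Psme1 and Psme2 lie right of 0 and most cap non-ATPase genes left of it, and the intervals of Psmb7 and Psmd1 are wide only with all 12 arrays.

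The largest rise in heart was that of Psme1, the alpha subunit of the interferon-induced activator ring. Its signals were 3841, 3272 and 3436 in the high-iron hearts and 3118, 4254 and 3146 in the control hearts, against 1479, 1339.9 and 1337 in the high-iron muscles and 1479, 1376 and 1444 in the control muscles. Every heart was above every muscle, with a log2 fold change of 1.31 ± 0.0709 (SE, adjusted p = 3.22e-10). A second Psme1 probe gave 1.04 (adjusted p = 5.65e-08). Psme2, the beta subunit of the same ring, had 561, 509 and 518 in the high-iron hearts and 562, 654 and 549.6 in the control hearts, against 430.2, 466 and 381 in the high-iron muscles and 389, 412 and 475 in the control muscles. The tissues again did not overlap, and the log2 fold change was 0.39 ± 0.0651 (SE, adjusted p = 0.000252).

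Psmb10 encodes the inducible subunit with trypsin-like activity. Its signals were 1312, 1037 and 1224 in the high-iron hearts and 1166, 1165 and 1097 in the control hearts, against 726, 734 and 730.2 in the high-iron muscles and 648, 664 and 648 in the control muscles. All hearts lay above all muscles, with a log2 fold change of 0.75 ± 0.0535 (SE, adjusted p = 1.11e-08), and the second probe gave 0.87 (adjusted p = 3.93e-08). Psmb9, the inducible counterpart of Psmb6, had 556, 547 and 630.4 in the high-iron hearts and 550.4, 598 and 542 in the control hearts, against 389, 394 and 443 in the high-iron muscles and 327, 388 and 362 in the control muscles. The groups did not overlap, with a log2 fold change of 0.58 ± 0.0564 (SE, adjusted p = 6.71e-07). Psmb8, the inducible counterpart of Psmb5, had 496, 766 and 856 in the high-iron hearts and 742, 488 and 736 in the control hearts, against 446, 476 and 476 in the high-iron muscles and 425, 448 and 421 in the control muscles. The 2 hearts that stood apart were nearest to the muscles but still above them. The log2 fold change was 0.57 ± 0.114 (SE, adjusted p = 0.00160) over 12 arrays and 0.79 ± 0.053 (SE, adjusted p = 2.36e-12) over 10. Its other 2 probes gave 0.27 (adjusted p = 0.0980) and 0.17 (adjusted p = 0.0152) over 12 arrays. With 10 arrays they gave 0.42 (adjusted p = 1.97e-05) and 0.19 (adjusted p = 0.0140).

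The standard catalytic subunits all had negative differences, of which that of Psmb6 was called over 12 arrays. Psmb6, the standard subunit with caspase-like activity, had 5653, 4467 and 4894 in the high-iron hearts and 4212, 5636 and 4467 in the control hearts, against 5716, 5426 and 6103 in the high-iron muscles and 6330.1, 5636 and 5389 in the control muscles. Its tissues overlapped, with a log2 fold change of -0.25 ± 0.0741 (SE, adjusted p = 0.0346), and the call was lost in 8 of the 12 fits that left out 1 array. Psmb5, with chymotrypsin-like activity, had 2166, 1919.7 and 1705 in the high-iron hearts and 1874, 2410.3 and 1758 in the control hearts, against 2133, 2114 and 2241 in the high-iron muscles and 2172, 2152 and 2140.3 in the control muscles. These levels overlapped, and the log2 fold change of -0.14 ± 0.0713 (SE, adjusted p = 0.289) did not pass the threshold, while over 10 arrays it was -0.25 ± 0.0531 (SE, adjusted p = 0.000692). Psmb7, with trypsin-like activity, had 297, 3657 and 3583 in the high-iron hearts and 3622, 284 and 3657 in the control hearts, against 5501, 5293 and 5716 in the high-iron muscles and 4819, 5090.4 and 4453 in the control muscles. Over 12 arrays its log2 fold change was -1.71 ± 0.588 (SE, adjusted p = 0.0711) and over 10 arrays -0.50 ± 0.0533 (SE, adjusted p = 2.69e-08). Its other 2 probes, free of the drop, gave -0.54 (adjusted p = 2.43e-06) and -0.63 (adjusted p = 1.01e-06) over all 12 arrays. In each of the 3 pairs (Psmb8 and Psmb5, Psmb9 and Psmb6, Psmb10 and Psmb7) the inducible member thus had a positive log2 fold change and its standard partner a negative one, though Psmb5 and the brightest Psmb7 probe were not called over 12 arrays.

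**Figure D4:**
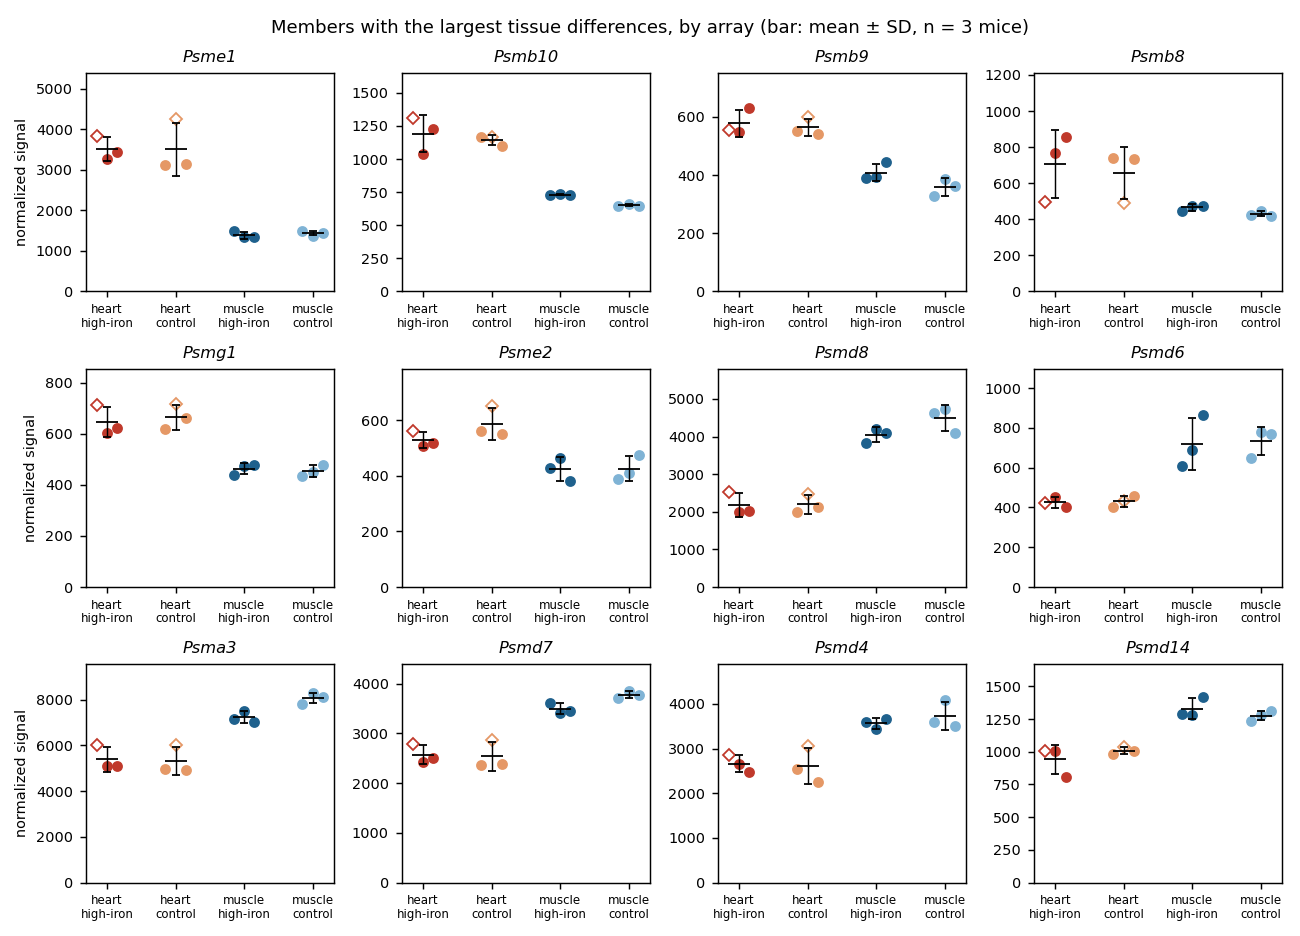
Normalized signal of the 6 members with the largest rise and the 6 with the largest fall in heart among called members whose tissues did not overlap, on each array. Bars show mean and SD (n = 3 mice), and open diamonds mark high-iron heart 1 and control heart 2. Psme1 lies at 3118 to 4254 in heart and at 1337 to 1479 in skeletal muscle, and Psmd8 lies at 1992 to 2535 in heart and at 3831 to 4746 in skeletal muscle.

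Among the cap non-ATPase genes, 7 of 14 were lower in heart. Psmd8, a lid subunit, had 2535, 1992 and 2016 in the high-iron hearts and 1992, 2470.4 and 2125 in the control hearts, against 3831, 4212 and 4107 in the high-iron muscles and 4624, 4746 and 4094 in the control muscles. Every heart was below every muscle, with a log2 fold change of -0.97 ± 0.0691 (SE, adjusted p = 1.16e-08). Psmd6, another lid subunit, had 423, 453 and 401 in the high-iron hearts and 403, 434 and 458 in the control hearts, against 610.3, 687 and 863 in the high-iron muscles and 651, 777 and 768 in the control muscles. Its tissues did not overlap, and the log2 fold change was -0.75 ± 0.0742 (SE, adjusted p = 7.17e-07). A second Psmd6 probe gave -0.27 (adjusted p = 0.0169). Psmd7, the lid partner of the deubiquitinase, had 2789, 2424 and 2499 in the high-iron hearts and 2356, 2872 and 2388 in the control hearts, against 3622, 3417 and 3443 in the high-iron muscles and 3715, 3855 and 3772 in the control muscles. The hearts lay below the muscles throughout, with a log2 fold change of -0.51 ± 0.0552 (SE, adjusted p = 2.08e-06), and a second probe gave -0.42 (adjusted p = 0.000317).

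Psmd4 encodes a ubiquitin receptor of the cap. Its signals were 2849, 2653 and 2467 in the high-iron hearts and 2535, 3051 and 2244 in the control hearts, against 3588, 3436 and 3672 in the high-iron muscles and 3588, 4094 and 3515 in the control muscles. No heart reached a muscle, with a log2 fold change of -0.48 ± 0.0665 (SE, adjusted p = 4.26e-05). Psmd14, the deubiquitinase that removes ubiquitin chains from substrates, had 1005, 1008 and 809 in the high-iron hearts and 983, 1037 and 1004 in the control hearts, against 1284, 1277 and 1421 in the high-iron muscles and 1236, 1284 and 1307 in the control muscles. Here too the tissues were separate, and the log2 fold change was -0.42 ± 0.0578 (SE, adjusted p = 3.45e-05). The lid genes Psmd11 (-0.26 ± 0.0567, adjusted p = 0.00344) and Psmd12 (-0.22 ± 0.0527, adjusted p = 0.00630) were lower by a smaller amount. Psmd4 and Psmd11 each have a second probe, at a mean signal of 242 and 281 and so near the median level of all probes (254.7), and there the log2 fold change was 0.01 and 0.02. Psmd1 passed only over 10 arrays (-0.44 ± 0.0559, adjusted p = 5.01e-07), as did Psmd13 (-0.19 ± 0.0514, adjusted p = 0.00712). The scaffold gene Psmd2 (0.02) and the lid gene Psmd3 (0.18) passed in neither fit. Psmd5, Psmd9 and Psmd10, named as cap subunits but known as chaperones of cap assembly, did not pass, with log2 fold changes of -0.03, -0.05 and 0.13.

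In the ATPase ring 2 of 6 genes were lower in heart, Psmc4 (-0.33 ± 0.0603, adjusted p = 0.000713) and Psmc5 (-0.30 ± 0.0552, adjusted p = 0.000785). The tissues overlapped for Psmc5, and its second probe, at a mean signal of 617, gave -0.23 (adjusted p = 0.0828) and did not pass over 12 arrays. That probe passed over 10 arrays (-0.27, adjusted p = 0.00987). Psmc4 had 1941, 2045 and 2399 in heart (lowest, median and highest of 6 arrays), against 2481, 2624 and 2902 in skeletal muscle, without overlap. Psmc1 passed over 10 arrays (-0.19 ± 0.0572, adjusted p = 0.0187), and Psmc2, Psmc3 and Psmc6 passed in neither, with log2 fold changes of -0.10, 0.03 and -0.13 over 12 arrays.

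In the alpha ring only Psma3 was called. Its signals were 6032, 5079 and 5079 in the high-iron hearts and 4973, 6005 and 4928 in the control hearts, against 7158, 7513 and 7032 in the high-iron muscles and 7811, 8267 and 8097 in the control muscles. All hearts were below all muscles, with a log2 fold change of -0.52 ± 0.0592 (SE, adjusted p = 4.20e-06), and a second probe at a mean signal of 249.7 gave 0.00. Psma4 was lower over 10 arrays (-0.21 ± 0.0561, adjusted p = 0.00745) and Psma6, whose level is below the median of all probes, was higher (0.16 ± 0.0556, adjusted p = 0.0461). Psma1, Psma2, Psma5, Psma7 and Psma8 passed in neither fit, with log2 fold changes between -0.13 and 0.13 over 12 arrays. The remaining beta genes Psmb1 (-0.31 ± 0.0695, adjusted p = 0.00134) and Psmb3 (-0.27 ± 0.0508, adjusted p = 0.000170) were lower over 10 arrays only, and Psmb2 (0.17), Psmb4 (-0.01) and Psmb11 (0.02) in neither. A second Psmb3 probe, at a mean signal of 1604, did not pass over 10 arrays (-0.15, adjusted p = 0.126). Psma8 and Psmb11, known as testis and thymus forms, were at or below the median level of all probes, as was the assembly gene Psmg3.

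The other activators were not called in the tissue comparison. Psme3, which forms a nuclear activator ring, had 733, 681 and 733 in the high-iron hearts and 711, 769 and 637 in the control hearts, against 662, 626 and 669 in the high-iron muscles and 705, 694 and 647 in the control muscles. Its tissues overlapped, and the log2 fold change was 0.09 ± 0.0514 (SE, adjusted p = 0.377). Psme4, a large single-chain activator, had 1431, 1437 and 1182 in the high-iron hearts and 1510.3, 1763 and 1632 in the control hearts, against 1453, 1465 and 1455 in the high-iron muscles and 1386, 1819.6 and 1647 in the control muscles. These levels overlapped as well, with a log2 fold change of -0.05 ± 0.0668 (SE, adjusted p = 0.802).

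Of the assembly chaperones, which help build the alpha ring, Psmg1 was higher in heart. It had 711, 603 and 622 in the high-iron hearts and 617, 715 and 662 in the control hearts, against 437, 474 and 477 in the high-iron muscles and 433, 451 and 477 in the control muscles. The tissues did not overlap, with a log2 fold change of 0.51 ± 0.0551 (SE, adjusted p = 2.02e-06). Its partner Psmg2 had 841, 748 and 667 in the high-iron hearts and 727, 772 and 711 in the control hearts, against 674, 625 and 711 in the high-iron muscles and 688, 675 and 697 in the control muscles. The levels overlapped, and the log2 fold change of 0.13 ± 0.0565 (SE, adjusted p = 0.179) did not pass. Psmg3 had 222, 269.9 and 241 in the high-iron hearts and 227, 242 and 239 in the control hearts, against 257, 274 and 259 in the high-iron muscles and 259, 246 and 269 in the control muscles. Its log2 fold change was -0.12 ± 0.0516 (SE, adjusted p = 0.180).

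With 10 arrays, all 17 called members kept their call and direction, and 9 more passed, giving 7 higher and 19 lower (8.22% and 6.78% of all probes). Among probes above the median level the shares were 15.4% and 12.7%. Of the 42 members above that level 6 were higher and 19 lower, so the higher count was again near the share of such probes. The cap then held 12 lower genes of 20 and no higher one, and the standard catalytic subunits Psmb5, Psmb6 and Psmb7 were all lower. Within the high-iron mice alone the 5 inducible genes had log2 fold changes of 0.32 (Psme2) to 1.34 (Psme1), and within the control mice 0.47 (Psme2) to 1.28 (Psme1), each past the threshold in both diets. Within the high-iron mice 14 of the 46 members were called, against 9.48% of all probes and 18.2% of those above the median level. Within the control mice 15 were called, against 9.42% and 18.2%. Of the 17 called over both diets, 13 passed in each. For 22 of the 29 members not called over 12 arrays, the 95% interval lay within 0.3 of 0 on the log2 scale, the exceptions being Psma2, Psmb1, Psmb2, Psmb3, Psmb7, Psmd1 and Psmd3.

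Other genes of the pathway are given by list. Of the antigen processing genes listed, which include the chaperones Calr, Canx and Pdia3, 6 of 11 measured were higher in heart and none lower. The shares of all probes were 7.61% and 5.76%. Over 10 arrays 7 were higher and none lower (8.22% and 6.78% of all probes). Tap2, a subunit of the peptide transporter, had a log2 fold change of 0.72 (adjusted p = 5.17e-09), Pdia3, a chaperone of the peptide-loading complex, 1.16 (adjusted p = 3.94e-08), B2m, the class I light chain, 0.89 (adjusted p = 3.62e-06) and H2-K1, a class I heavy chain, 0.74 (adjusted p = 2.62e-05). Tap1, the transporter gene that shares its promoter region with Psmb9, was measured by a probe below the median level, with 239 ± 14 in heart and 227 ± 10.4 in skeletal muscle (SD, n = 6 arrays each) and a log2 fold change of 0.08 (adjusted p = 0.440).

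Among the 15 proteasome-associated factors measured, 3 were higher and 5 lower in heart, against 7.61% and 5.76% of all probes. With 10 arrays 2 were higher and 6 lower (8.22% and 6.78% of all probes). Rad23b, a shuttle that carries ubiquitinated proteins to the cap, was lower at -1.07 (adjusted p = 8.15e-08), as was Ubqln4, another shuttle, at -0.39 (adjusted p = 0.000161). On high-iron heart 1 and control heart 2 Rad23b read 587 and 597, against 793 to 852 on the other hearts. Over 10 arrays its log2 fold change was -0.91 (adjusted p = 2.00e-13). Usp14, a deubiquitinase of the cap, was higher at 0.31 (adjusted p = 0.00303), and Sem1, a small lid subunit, at 0.34 (adjusted p = 0.00418). Of 8 regulators of proteasome gene transcription 3 were lower, Mafg (-0.53, adjusted p = 1.42e-06), Keap1 (-0.42, adjusted p = 2.23e-06) and Nfe2l1 (-0.35, adjusted p = 0.00279), and none higher. Maff, a small partner of these factors, was next by p and did not pass (0.14, adjusted p = 0.145). Of 7 ubiquitin ligases of muscle, Fbxo32, the atrophy ligase atrogin-1, was lower in heart at -1.28 (adjusted p = 7.17e-11), Trim54 at -0.74 (adjusted p = 5.94e-08) and Traf6 at -0.22 (adjusted p = 0.00363), and Stub1 was higher at 0.19 (adjusted p = 0.0336). Over 10 arrays 4 ligases were lower and 1 higher, and 3 regulators were lower and none higher. The single gene measured of the ubiquitin and ubiquitin-activating list, Uba6, was higher at 1.32 (adjusted p = 0.000305). It had 615 on high-iron heart 1 and 1212 on control heart 2, against 1816 to 2202 on the other hearts. Over 10 arrays its log2 fold change was 1.73 (adjusted p = 8.22e-17).

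Markers of other cell types moved with the tissue difference. Of 10 leukocyte markers 7 were higher in heart, and their summed signal was 8882 to 10084 in heart, against 5941 to 7063 in skeletal muscle. Those higher were Lyz2, Laptm5, Coro1a, Cd74 and the class II genes H2-Aa, H2-Ab1 and H2-Eb1, while the defining markers Ptprc (249 ± 6.18 in heart and 242 ± 11.7 in skeletal muscle; SD, n = 6 arrays each) and Itgam (190.4 ± 12 in heart and 196 ± 13.3 in skeletal muscle) lay below the median level of all probes and did not differ at the threshold. Of 8 endothelial markers 7 were higher in heart, with a summed signal of 7926 to 8669 in heart, against 5306 to 5757 in skeletal muscle. None of 8 neutrophil markers passed over 12 arrays, and 2 were higher in heart over 10 (S100a8 at 0.58 and S100a9 at 0.41). Of 6 fibroblast markers 3 were lower in heart over 12 arrays and 4 over 10, with none higher. Of 5 atrial markers 1 was higher over 12 arrays and 2 over 10. Their summed signal was 57413 on high-iron heart 1, against 1607 on the lowest high-iron heart and 1614 to 5059.6 over the control hearts. The summed signal of 6 adipocyte markers was 4614 on control heart 2 and 1490.4 on the lowest control heart, while the high-iron hearts lay between 1532 and 1601. These 2 high sums fall on the hearts that stood apart. The part of leukocytes and endothelial cells in the signals of the inducible genes, and that of atrial or adipose tissue in the heart signals, was not tested.

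The diet comparison asked whether iron loading changed proteasome transcripts, and no member passed the threshold in either tissue. In heart, 0 of 46 members were called, as were 0% of all 46133 probes, and 1 member had an unadjusted p under 0.05 in limma, against 1180 probes (2.56%). The smallest adjusted p of a member was 1.00, and the median log2 fold change over the members was 0.02, against 0.00 over all probes. In skeletal muscle, again 0 of 46 members were called, against 46 probes in all (0.0997%), and 5 members had an unadjusted p under 0.05, against 2364 probes (5.12%). The smallest adjusted p of a member was there 0.821, and the median log2 fold change was -0.02, against 0.00 over all probes. The 95% interval of the diet difference lay within 0.5 of 0 on the log2 scale for all 46 members in skeletal muscle and for 43 in heart, the exceptions being Psmb7, Psmb8 and Psmd1. With the 4 hearts left after removing the 2 that stood apart, no member was called (28 probes were, 0.0607%), and all 46 intervals lay within 0.5. Other marker sums moved with diet in the hearts. The sum of 4 smooth muscle markers was 4654 to 4991 in the high-iron hearts, against 5847 to 7048 in the control hearts, and that of 9 fast-fibre markers 8927 to 10412 in the high-iron hearts, against 12342 to 16742 in the control hearts. All 4 smooth muscle markers had negative log2 fold changes over 6 hearts, from -0.45 to -0.02. With 4 hearts 2 of them were positive and 2 negative, from -0.41 to 0.06. Of the 9 fast-fibre markers, 4 had positive and 5 negative log2 fold changes over 6 hearts, from -1.37 to 0.21 with a median of -0.005. Over 4 hearts 1 was positive and 8 were negative, with a median of -0.12 and a lowest value of -1.58. The study lists Acta1, 1 of the 9, as lower in iron-loaded hearts. No marker of these lists was called over the 6 hearts, and 1 fast-fibre marker was lower over 4. The atrial markers had a median log2 fold change of 0.75 over 6 hearts and -0.28 over 4. The part of these tissues in the diet values of the members was not tested.

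**Figure D5:**
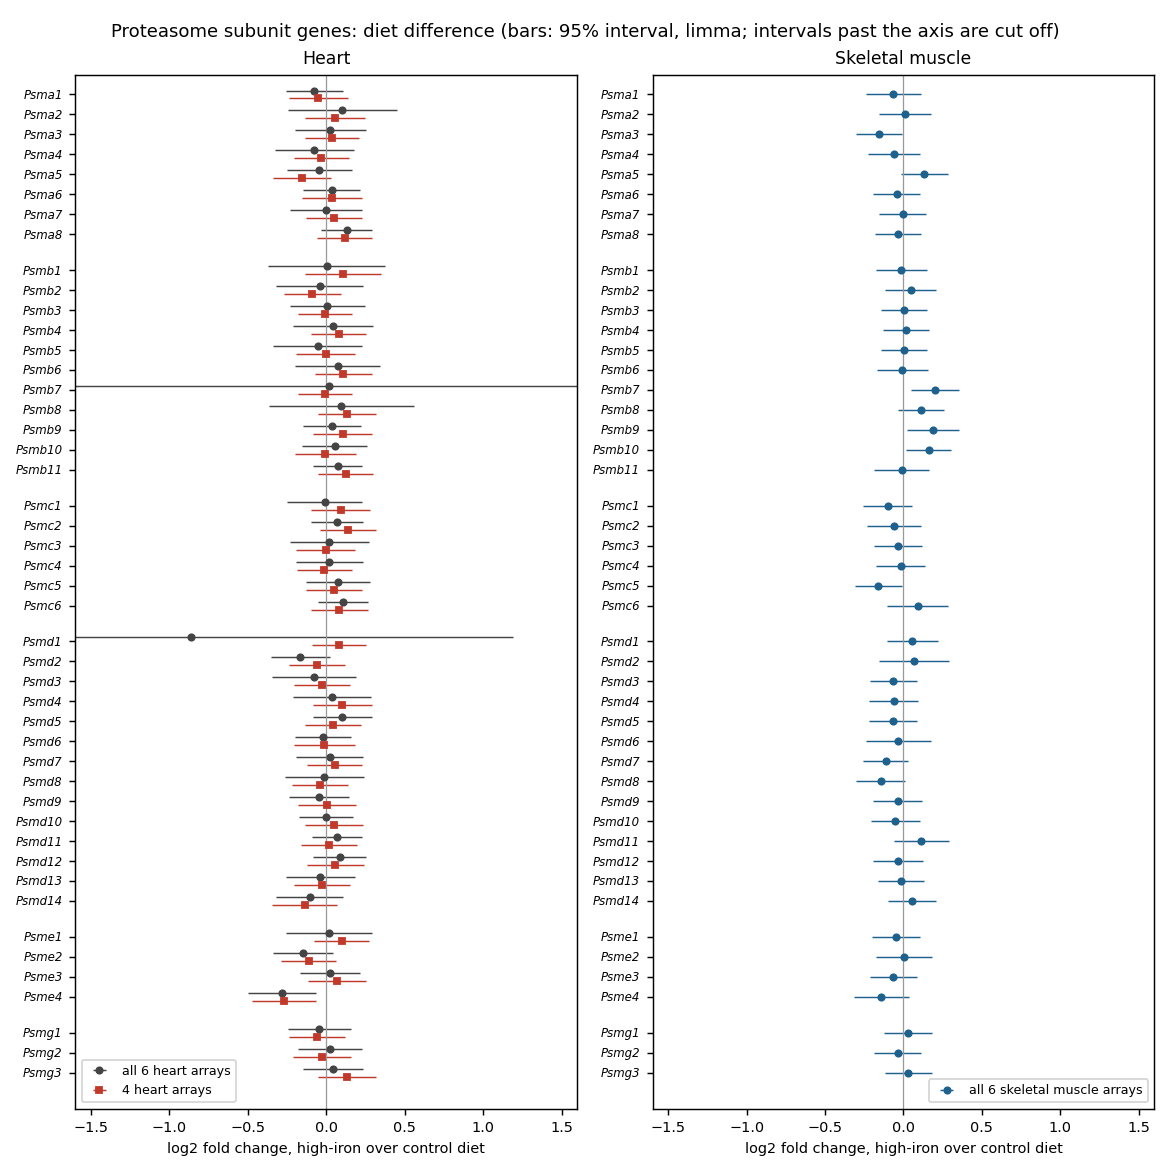
Log2 fold change, high-iron over control diet, of the 46 members in heart (all 6 arrays as circles, 4 arrays as squares) and in skeletal muscle (6 arrays), with 95% intervals from limma. The intervals of Psmb7 and Psmd1 in heart run past the axis with all 6 arrays, and no member passed the adjusted threshold in any of the 3 fits.

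In heart the member with the smallest p was Psme4, the single-chain activator. Its signals were 1431, 1437 and 1182 in the high-iron hearts, against 1510.3, 1763 and 1632 in the control hearts. All high-iron hearts lay below all control hearts, as for 2 of the 46 members (3.96% of all probes). The log2 fold change was -0.28 ± 0.0973 (SE, 95% interval -0.50 to -0.06), and -0.27 with 4 hearts. A second Psme4 probe, at a mean signal of 299, gave -0.14 with overlapping diets. In skeletal muscle Psme4 had 1453, 1465 and 1455 in the high-iron muscles, against 1386, 1819.6 and 1647 in the control muscles. These overlapped, with a log2 fold change of -0.14 ± 0.0848 (SE, 95% interval -0.32 to 0.03).

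The next members by p in heart with lower values on the high-iron diet were Psmd2, a cap scaffold subunit, Psme2 and Psmd14. Psmd2 had 433, 517 and 487 in the high-iron hearts, against 523, 561 and 523 in the control hearts. The diets did not overlap, but the log2 fold change of -0.16 ± 0.0841 (SE, 95% interval -0.35 to 0.02) did not pass. Psme2 had a log2 fold change of -0.15 ± 0.087 (SE, 95% interval -0.34 to 0.05) and Psmd14 of -0.11 ± 0.0946 (SE, 95% interval -0.32 to 0.10), both with overlapping diets. A second Psmd2 probe gave -0.15.

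With higher values on the high-iron diet, the smallest p in heart belonged to Psma8, Psmc6, Psmd5 and Psmd12. Psma8, at the median level of all probes, had 251, 261 and 268 in the high-iron hearts, against 239.9, 225 and 248 in the control hearts. The ATPase gene Psmc6 had 389, 399.6 and 369 in the high-iron hearts, against 358, 350.0 and 367 in the control hearts. These 2 genes were the only members whose high-iron hearts all lay above the control hearts (3.83% of all probes). Their log2 fold changes were 0.13 ± 0.0726 (SE, 95% interval -0.03 to 0.29) and 0.11 ± 0.0703 (SE, 95% interval -0.05 to 0.26). Psmd5 had 0.10 ± 0.0853 (SE, 95% interval -0.09 to 0.29) and Psmd12 0.08 ± 0.0757 (SE, 95% interval -0.08 to 0.25), with overlap. Second probes gave 0.12 for Psma8, -0.05 for Psmc6 and 0.15 for Psmd5.

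In skeletal muscle Psmb7 had the smallest p among members higher on the high-iron diet. Its signals were 5501, 5293 and 5716 in the high-iron muscles, against 4819, 5090.4 and 4453 in the control muscles. The diets did not overlap, and the log2 fold change was 0.20 ± 0.0744 (SE, 95% interval 0.05 to 0.36). The other 2 Psmb7 probes gave -0.01 and -0.03.

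The inducible genes Psmb9 and Psmb10 followed. Psmb9 had 389, 394 and 443 in the high-iron muscles, against 327, 388 and 362 in the control muscles. Psmb10 had 726, 734 and 730.2 in the high-iron muscles, against 648, 664 and 648 in the control muscles. In both, every high-iron muscle lay above every control muscle, as for 4 of the 46 members (5.24% of all probes). Their log2 fold changes were 0.19 ± 0.0797 (SE, 95% interval 0.02 to 0.35) and 0.16 ± 0.0692 (SE, 95% interval 0.02 to 0.30), and the second Psmb10 probe gave 0.01. Psma5, an alpha ring gene near the median level of all probes, had 285, 271 and 282 in the high-iron muscles, against 241, 256 and 267 in the control muscles. The diets did not overlap, with a log2 fold change of 0.13 ± 0.0721 (SE, 95% interval -0.02 to 0.28). Psmb8 gave 0.11 ± 0.0714 (SE, 95% interval -0.04 to 0.26), Psme1 -0.05 ± 0.0732 (SE, 95% interval -0.20 to 0.10) and Psme2 0.00 ± 0.0863 (SE, 95% interval -0.18 to 0.18), so the 5 inducible genes did not all lie on the same side of 0. Neutrophil markers moved with diet in the same muscles. Of 8 measured, S100a8 (1.18, adjusted p = 0.000736) and S100a9 (0.94, adjusted p = 0.000221) were higher on the high-iron diet, and the other 6 had log2 fold changes of -0.11 to 0.15. The summed signal of the 8 was 2291 to 3164 in the high-iron muscles, against 2102 to 2132 in the control muscles. None of 10 leukocyte markers was called there, and the part of neutrophils in these values was not tested.

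With lower values on the high-iron diet, the smallest p in skeletal muscle belonged to Psma3, Psmc5, Psmd8 and Psme4. Psma3 had 7158, 7513 and 7032 in the high-iron muscles, against 7811, 8267 and 8097 in the control muscles. The ATPase gene Psmc5 had 3272, 3089 and 3502 in the high-iron muscles, against 3702, 3749.9 and 3558 in the control muscles. In both, the high-iron muscles lay below the control muscles, as for 3 of the 46 members (4.97% of all probes). Their log2 fold changes were -0.16 ± 0.0708 (SE, 95% interval -0.30 to -0.01) and -0.16 ± 0.0732 (SE, 95% interval -0.31 to -0.01), and second probes gave -0.01 and -0.09. The lid gene Psmd8 had 3831, 4212 and 4107 in the high-iron muscles, against 4624, 4746 and 4094 in the control muscles. The diets overlapped, with a log2 fold change of -0.15 ± 0.0766 (SE, 95% interval -0.31 to 0.01).

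For no member did the diet difference itself differ between heart and skeletal muscle past the threshold (0 of 46, and 0% of all probes). At an unadjusted p under 0.05 in limma the count was 1 member, against 1547 probes (3.35%). That member was Psmc5, at 0.24 (heart minus skeletal muscle of the diet log2 fold changes). Without the 2 hearts that stood apart, the count of called members was again 0 (8 probes in all, 0.0173%), and 1 member, Psma5, had an unadjusted p under 0.05 in limma, at -0.29 (4.71% of all probes). The signal of Psma5 lies near the median level of all probes. Of the other pathway lists, Fbxo32 alone passed in a diet comparison, with a log2 fold change of 0.47 in skeletal muscle (adjusted p = 0.0387), and none passed in heart.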

How the data were processed

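The deposited sample files give 1 signal intensity per probe and array, exported by the authors from BeadStudio before normalization; the authors' own normalized intensity table, deposited for the series, served as an alternative. Groups came from the labels. Signals were quantile normalized over the 12 arrays and taken to log2 without an offset in R 4.3.3, and tested with limma 3.58.1 (two-sided, Benjamini-Hochberg over all 46133 probes, threshold 0.05). Diets were compared within each tissue. Tissues, and the difference in diet effect, were compared in a fit to the 12 arrays that took each mouse as a random effect (duplicateCorrelation, 0.0717), taking heart and skeletal muscle arrays of the same diet and biological replicate number in the labels as 1 mouse, which the labels imply but do not state (correlations of their deviations 0.0262 to 0.0998). Of all probes, 29542 had 1 symbol, 11 several and 16580 none. Genes, lists and tests were chosen with earlier results of these data known, and the 2 hearts that stood apart are not marked in the labels. The methods report failed probes on a heart array of each diet without naming replicate or probe, so no probe was left out here.

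Named members are the catalytic, activator and assembly genes, the 6 largest called differences per direction without overlap between tissues, and the 4 of smallest p per direction in each diet comparison. Of other lists, up to 4 genes of smallest p and any called by diet are named. Promoters were searched on both strands. The steps were tested on simulated data. Detection p-values were not used, and precision is limited by how many arrays there are.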

Additional observations from a re-analysis of the deposited data

How the results depend on the processing

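Over 9 alternative settings the members higher in heart numbered 5 to 7 and the members lower 8 to 19, against 6 and 11 in the text, and no diet or interaction comparison called a member under any setting. The count of 19 lower members came without high-iron heart 1 and control heart 2, an alternative known from earlier results. With each gene's second brightest probe, where it has one, the median tissue difference was 0.00534 in place of -0.09, and 5 values changed sign: the tissue differences of Psma3 (0.00308), Psmd11 (0.0155) and Psmd4 (0.0145), the heart diet difference of Psmc6 (-0.0543) and the skeletal muscle diet difference of Psmb7 (-0.00683). The calls of Psmb8 (0.27) and Psmc5 (-0.23) were lost with the second probe over 12 arrays, and Psmb7 was called (-0.54). With 10 arrays the second probes of Psmb8 (0.42, adjusted p = 1.97e-05 in limma) and Psmc5 (-0.27, adjusted p = 0.00987) passed. The second probes of Psma3, Psmd11 and Psmd4 lie near the median level of all probes, and the cause was not tested. Leaving out 1 array at a time gave 6 to 7 higher members, 10 to 15 lower members and a median of -0.11 to -0.06. The Psmb6 call was lost in the authors' table (adjusted p = 0.0547 in limma), with a trended prior (adjusted p = 0.0664) and in 8 of 12 fits without 1 array, and the Psmd12 call was lost when arrays were scaled to one median (adjusted p = 0.0562). With the mouse as a fixed replicate block 6 members were higher and 13 lower, among them Psmb7 (adjusted p = 0.0428), and without any block 6 and 11. Array medians before normalization fell from replicate 1 to 3 in every group. They were 281.4 to 337.2, then 251.4 to 282.5, then 182.9 to 192.7. Between diets, arrays of the same replicate number were compared by their deviations from the group mean. These deviations had correlations of -0.46, -0.54 and 0.49 in heart and 0.10, 0.02 and 0.02 in skeletal muscle. In heart these correlations cannot decide whether the numbers pair the diets, because the 2 hearts that stood apart carry different numbers. By the same deviations, 2 of 3 high-iron arrays in skeletal muscle and 1 of 3 in heart correlated best with the control of their own number. A block on replicate number called 0 members in either tissue. Of 630 values of single genes under alternatives, 601 kept their direction and side of the threshold. Genes without a second probe could not change in the second-probe setting and are counted among the values kept. Signals near the median level of all probes, as for Psma5, Psma6, Psma8, Psmb11 and Psmg3, limit what those members can show.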
